A study of Mus musculus with 6 samples.

Results

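The miRNAs described here are 39 mature miRNAs of the Dlk1-Dio3 imprinted region of the mouse genome, taken by name from the 1247 miRNAs on the array whether or not they were detected. The arrays were hybridised with small-RNA-enriched total RNA of mammary cells sorted from mice that were virgin and wild type, of the strain FVB/N-J, and each sample carried the single dye Cy3. P4 cells are lineage-negative, CD24-positive and high in CD29 (integrin beta 1), a gate enriched for mammary stem cells that also takes in the basal layer as background knowledge. P5 cells pass the same gate with low CD29 and are enriched for luminal cells. There were 3 arrays for P4 and 3 for P5. The labels do not say whether the replicates came from separate mice or sorts, so p-values cover only the spread among these samples, and that spread may be technical. With so few arrays, precision is limited throughout. The questions were how much of the region is silent in these cells, what level the few detected members had on P4 and P5 arrays, and whether their probes gave the same answer.

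Imprinted genes are expressed from the allele of 1 parent. In the Dlk1-Dio3 region the protein-coding genes Dlk1, Rtl1 and Dio3 are read from the paternal chromosome, and long non-coding transcripts, Meg3 (Gtl2), an antisense transcript of Rtl1, Rian and Mirg, from the maternal one. The miRNAs are cut from these maternal transcripts, and the region is known for its activity in embryo, placenta, brain and mesenchyme. Several of its miRNAs lie opposite Rtl1 and match its message perfectly, and miR-127 and miR-136 are known to direct its cleavage.

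RefSeq mature sequences (build GRCm38.p6) matched 34 of the 39 members. All lay on chromosome 12, 33 on the plus strand and 1, mmu-miR-299b-5p, on the minus strand. The members detected on all 6 arrays that have such a sequence are shown first, in map order, because they carry the levels reported below. Capitals mark the seed, bases 2 to 8, the stretch that pairs with target messages.
mmu-miR-431-3p: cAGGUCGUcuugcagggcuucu
mmu-miR-370-3p: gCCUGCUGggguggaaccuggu
mmu-miR-299b-5p: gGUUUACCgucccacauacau
mmu-miR-494-3p: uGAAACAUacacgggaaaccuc
mmu-miR-134-5p: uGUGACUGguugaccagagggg
mmu-miR-668-3p: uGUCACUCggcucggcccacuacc

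mmu-miR-431-3p lies at chr12:109590502-109590523, within the RefSeq span of Rtl1 but on the strand opposite to that gene's own message. mmu-miR-370-3p lies at chr12:109618305-109618326 within Rian. Between Rian and Mirg lie mmu-miR-299b-5p at chr12:109710673-109710693, mmu-miR-494-3p at chr12:109715367-109715388, mmu-miR-134-5p at chr12:109734145-109734166 and mmu-miR-668-3p at chr12:109734774-109734797. The 34 sequences held 34 different seeds, so no seed was shared among these 34 members. Among miRNAs elsewhere on the array, a single detected one shared a seed with a member. This was mmu-miR-362-3p, whose seed is that of the undetected mmu-miR-329-3p. For the 6 detected members with a sequence, the closest other sequence on the array differed by at least 7 single-base edits. Only array miRNAs with a RefSeq sequence, 1017 in all, could be compared. Of Mir299a, the hairpin next to Mir299b on the opposite strand, only 1 arm was on the array. The other arm was not compared, so the signal of mmu-miR-299b-5p is not shown to be separate from it. The distances therefore do not show that a probe binds its own miRNA alone.

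The next set is shown because these members stayed below detection everywhere. mmu-miR-431-5p comes from the same hairpin as the detected mmu-miR-431-3p. The other 7 had P4 and P5 signals that did not overlap, described further on.
mmu-miR-431-5p: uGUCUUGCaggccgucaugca
mmu-miR-337-3p: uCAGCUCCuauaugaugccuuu
mmu-miR-127-3p: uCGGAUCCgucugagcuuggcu
mmu-miR-136-5p: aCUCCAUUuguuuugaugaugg
mmu-miR-379-5p: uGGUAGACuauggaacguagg
mmu-miR-411-5p: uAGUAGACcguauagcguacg
mmu-miR-495-3p: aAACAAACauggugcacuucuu
mmu-miR-377-3p: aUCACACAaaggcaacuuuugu

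Most of the region was not detected in these mammary cells by the rule of the scanner software. Detection here is the flag that Agilent's software sets per miRNA and array. By that flag 29 of the 39 members, 74.4%, were detected on none of the 6 arrays, 10 (25.6%) on at least 1 and 7 on all 6. Over all 1247 miRNAs of the array the shares were 61.9% on none and 38.1% on at least 1, and 293 miRNAs (23.5%) were detected on all 6. The P4 arrays detected 7, 7 and 9 members, and the P5 arrays 10, 10 and 9. The counts overlap between the populations. A further 75 miRNAs that RefSeq places between Dlk1 and Dio3 are on the array but are no members, being other arms of these hairpins or other hairpins of the region. Of these 68 were detected on no array, 7 (9.33%) on at least 1 and 3 on all 6.

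The detected members were scattered along the map rather than confined to 1 stretch. Counted by hairpin, the region had 58 hairpins with at least 1 arm on the array, and 16 of them gave a detected arm. Of the hairpins that supply members, 3 of 9 within Rtl1, 1 of 1 within Rian, 6 of 20 between Rian and Mirg and 0 of 6 within Mirg had a detected member. Silent hairpins flank detected ones closely. Mir494 was detected on all 6 arrays while its neighbours on the array, Mir329 and Mir679, were detected on none. Mir134 and Mir668 lay next to each other and were both detected on all 6 arrays, with the silent Mir382 and Mir485 on either side.

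**Figure D1:**
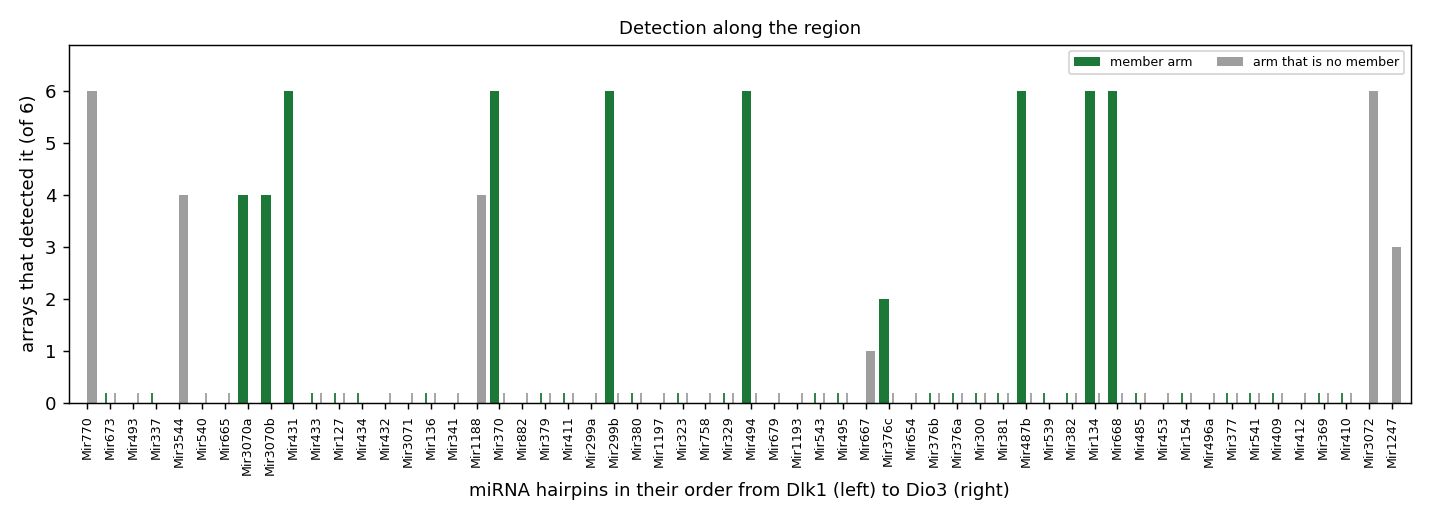
Number of arrays, of 6, on which each miRNA hairpin between Dlk1 and Dio3 gave a detected arm, in map order and evenly spaced. Green bars are member arms and grey bars arms that are no members, each the highest over such arms, and a short tick stands for an arm measured but detected on no array. miR-1906, which RefSeq places at 2 loci, is not drawn. Detected arms lie between ticks of silent ones, and no member hairpin within Mirg, from Mir154 to Mir410, has a bar.

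Each detected hairpin with both arms on the array was detected through 1 arm. For 9 of the 10 detected members the partner arm was on the array, and none of the 9 partners was detected on any array. The hairpin Mir431 is a case in which both arms are members. mmu-miR-431-3p was detected on all 6 arrays, but with only 5.13 to 75% of its kept spots well above background. The signal of mmu-miR-431-5p lay between -3.64 and -2.21 intensity units. For mmu-miR-494-3p, detected on all 6 arrays, the partner mmu-miR-494-5p had signals between -1.89 and 4.93. The processed signal is background-subtracted, so values below 0 mean a spot dimmer than its estimated background.

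The 29 undetected members, mmu-miR-369-3p aside, had signals within the range of single negative control spots or below it. Of their 174 signals over the 6 arrays, 101 (58.0%) were below 0, and 10 members were below 0 on every array. These 10 were miR-323-3p, miR-337-5p, miR-380-5p, miR-381-3p, miR-382-5p, miR-431-5p, miR-433-3p, miR-485-5p, miR-541-5p and miR-673-5p. For the 743 other miRNAs detected on no array 76.6% of signals were below 0. The median signal of the undetected members was -1.34, 0.98 and 1.12 on the P4 arrays and -1.38, -1.26 and -1.70 on the P5 arrays. The corresponding medians of the other undetected miRNAs were -2.73, -1.64 and -2.23 on the P4 arrays and -2.18, -1.82 and -2.01 on the P5 arrays. On every array the members' median was thus the higher of the 2, by a few intensity units at most.

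Negative control spots, which match no mouse miRNA, had means of 5.53, 7.08 and 5.91 on the P4 arrays and 4.32, 5.03 and 6.42 on the P5 arrays. Signals above that mean came from 0, 2 and 4 undetected members on the P4 arrays and 2, 1 and 1 on the P5 arrays. The 95th percentile of the control spots is over single spots, whereas a member's signal is a mean over up to 40 spots. Means vary less than single spots, so a signal below that percentile is not shown to be background. Only 3 of the 174 signals were above it, and all 3 belonged to mmu-miR-369-3p. Its signal was 5.02, 12.5 and 12.6 on the P4 arrays and 11.6, 12.4 and 6.57 on the P5 arrays, and the groups overlap. The highest signal of any undetected member was 2.70, 3.26 and 4.61% of the scaling signal of its P4 array and 2.20, 2.71 and 2.09% of that of its P5 array. The scaling signal is the 75th percentile of signal over the miRNAs detected on all 6 arrays, and was 186, 382 and 273 intensity units on the P4 arrays and 526, 457 and 315 on the P5 arrays. The lowest signal of any miRNA flagged as detected lay between -0.059 and 1.95 intensity units on the P4 arrays and was at most 4.80 on the P5 arrays. On every array at least 1 undetected member had a higher signal than that. The flag is therefore no cut-off on signal, and silent here means not flagged rather than dimmer than every detected miRNA. For the undetected members the shares given above are only a bound. Fewer cells of a type and less RNA per cell cannot be told apart in RNA from sorted populations.

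**Figure D2:**
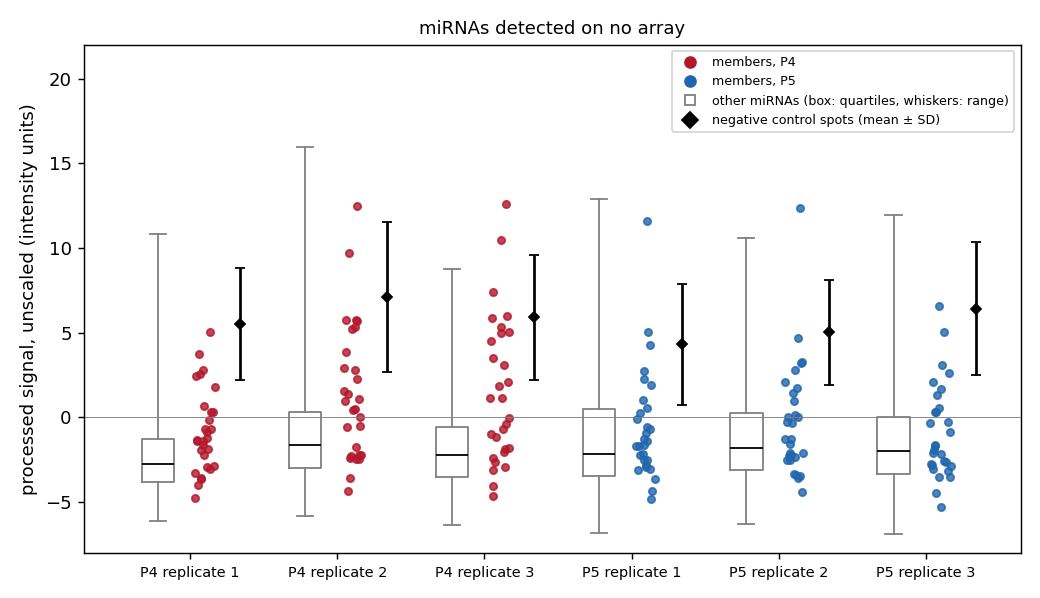
Unscaled processed signal (intensity units, linear axis) of miRNAs detected on no array, for the P4 arrays at the left and the P5 arrays at the right. Dots are the 29 members, grey boxes the 743 other miRNAs (quartiles, with whiskers over the whole range) and diamonds the negative control spots (mean ± SD over spots). Most dots lie below the diamond of their array, and no dot on any of the 6 arrays reaches 13 units.

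The labelled cell types were checked on lists of miRNAs known as markers, with limma's test over all miRNAs (described below). All 3 basal markers were higher in P4, both luminal markers were lower in P4, and all 5 miRNAs of the miR-200 family, markers of epithelium, were detected and lower in P4. Markers of other lineages moved too. Of 4 miRNAs of fibroblasts and other mesenchyme, 3 were higher in P4, with a summed scaled signal of 1.05 to 2.96 on the P4 arrays and 0.115 to 0.156 on the P5 arrays, and the fourth, miR-214-3p, was detected on no array. Both endothelial markers were higher in P4, with sums of 8.09 to 20.6 on the P4 arrays and 0.767 to 2.33 on the P5 arrays. Of 4 leukocyte markers 2 were higher in P4, with sums of 0.944 to 2.96 on the P4 arrays and 0.593 to 0.821 on the P5 arrays. Of 4 skeletal muscle markers 3 were higher in P4, with sums of 0.452 to 0.764 on the P4 arrays and 0.00381 to 0.0317 on the P5 arrays, and miR-206-3p was detected on none. None of the 4 neuronal markers on the array, miR-124-3p, miR-9-5p, miR-128-3p and miR-129-5p, was detected. Their part in the results below was not tested.

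For the levels, each array's signal was divided by its scaling signal and taken to log2, so 0 stands for the scaling signal itself, and each miRNA was compared only with itself across arrays. The miRNAs detected on all 3 arrays of at least 1 population were tested with limma, 370 in all, p-values being adjusted by Benjamini and Hochberg's method and called under 0.05. Of these 51 (13.8%) were higher and 52 (14.1%) lower in P4. Of the members 9 passed this filter, and 1 of the 9 was higher and 0 lower in P4, by limma's test with the other settings giving 0 to 3 higher and 0 or 1 lower. The counts are too small to set the members apart from the other miRNAs. The median difference, P4 minus P5, was 0.35 over the 9 members and 0.0013 over all miRNAs tested, with 6 members positive and 3 negative. Of the 9, miR-3070a-3p and miR-3070b-3p passed the filter through P5 alone, where they were detected on all 3 arrays, so their place in these counts is not independent of their difference.

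mmu-miR-370-3p, the one detected member within Rian, was higher in P4. In human liver cells this miRNA is known to target CPT1A, the enzyme that gates fatty acid entry into mitochondria. Its log2 scaled signal was 0.29, -0.03 and 0.33 on the P4 arrays and -0.85, -0.96 and -0.55 on the P5 arrays. Every P4 array was above every P5 array. The means were 0.20 ± 0.20 in P4 and -0.78 ± 0.21 in P5 (SD, n = 3 arrays each), a difference of 0.98 ± 0.18 (SE) or 1.98-fold, with an adjusted p of 0.0057 (limma). Its unscaled signal overlapped, at 228, 374 and 345 intensity units on the P4 arrays and 293, 235 and 216 on the P5 arrays, P4 replicate 1 being lower than P5 replicates 1 and 2. The difference was 0.33 with no scaling (adjusted p = 0.452, limma), where the median of all tested miRNAs stood at -0.64. It missed the threshold also when all 1247 miRNAs were tested (0.98, adjusted p = 0.0831) and with a block for the row of the array on the slide (1.04, adjusted p = 0.066).

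Both probes of mmu-miR-370-3p gave the same answer. All of its spots that were kept were well above background on every array. The differences of its probes were 0.96 and 1.00. Spots of the same probe on the same array varied with a coefficient of variation of 3.48 to 9.60%.

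mmu-miR-494-3p was detected on every array. Its log2 scaled signal was 2.00, 1.95 and 1.97 on the P4 arrays and 1.43, 1.73 and 1.70 on the P5 arrays. The groups did not overlap, yet the difference of 0.35 ± 0.15 (SE, n = 3 arrays each) did not pass the threshold (adjusted p = 0.125, limma). Its unscaled signal was 744, 1479 and 1074 intensity units on the P4 arrays and 1417, 1522 and 1023 on the P5 arrays, so the groups overlapped before scaling, and with no scaling the difference turned to -0.30. With the authors' processed values it was 0.03. Its probes differed by 0.34 and 0.37, and the spread among spots was between 0.861 and 6.31%.

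mmu-miR-487b-3p had log2 scaled signals of -0.81, -1.16 and -0.95 on the P4 arrays and -1.53, -1.45 and -1.06 on the P5 arrays. P4 replicate 2 was below P5 replicate 3, so the groups overlapped. The difference of 0.37 ± 0.19 (SE, n = 3 arrays each) did not pass the threshold (adjusted p = 0.167, limma). It was -0.28 with no scaling and 0.05 with the authors' processed values. Its unscaled signal was 106, 172 and 141 intensity units on the P4 arrays and 182, 167 and 151 on the P5 arrays. Both of its probes gave a difference of 0.37, but their levels were unlike, at 66.7 to 111 units for 1 probe and 145 to 252 for the other.

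mmu-miR-299b-5p, the member on the minus strand, had log2 scaled signals of -2.79, -3.55 and -3.35 on the P4 arrays and -4.36, -4.33 and -3.58 on the P5 arrays. Every P4 array was above every P5 array, P4 replicate 2 and P5 replicate 3 by a narrow margin. Its unscaled signals were close to each other on all arrays, at 26.8, 32.8 and 26.7 intensity units on the P4 arrays and 25.7, 22.7 and 26.3 on the P5 arrays. They did not overlap either, and the highest was 1.44 times the lowest, a narrower span than that of the scaling signals given above. The scaled difference was 0.86 ± 0.29 (SE, n = 3 arrays each). The call depended on the processing. The adjusted p was 0.0626 (limma) as reported, 0.0412 with normexp background correction, 0.0353 with the brightest probe in place of the mean and 0.0179 without P5 replicate 3. The difference itself was 0.21 with no scaling (adjusted p = 0.602, limma) and 0.53 with the authors' processed values (adjusted p = 0.197).

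mmu-miR-668-3p had log2 scaled signals of -2.94, -3.72 and -3.89 on the P4 arrays and -4.56, -4.43 and -3.67 on the P5 arrays. P5 replicate 3 lay above P4 replicates 2 and 3, so the groups overlapped. The difference was 0.70 ± 0.33 (SE, n = 3 arrays each, adjusted p = 0.149, limma), and 0.98 (adjusted p = 0.0475) without P5 replicate 3. It was 0.05 with no scaling (adjusted p = 0.920, limma) and 0.38 with the authors' processed values (adjusted p = 0.403). Its unscaled signals also lay close together, between 18.4 and 29.0 intensity units on the P4 arrays and between 21.2 and 24.8 on the P5 arrays. Its 4 probes gave differences of 0.66 to 0.74. Of its kept spots, 95, 66.7 and 30% were well above background on the P4 arrays and 42.5, 54.1 and 65% on the P5 arrays.

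mmu-miR-431-3p had log2 scaled signals of -3.97, -4.01 and -4.04 on the P4 arrays and -4.39, -4.51 and -4.18 on the P5 arrays. The groups did not overlap, and the difference of 0.35 ± 0.15 (SE, n = 3 arrays each) did not pass the threshold (adjusted p = 0.125, limma). It was -0.30 with no scaling and -0.0871 with the authors' processed values. Its unscaled signals were 11.9, 23.8 and 16.6 intensity units on the P4 arrays and 25.1, 20.1 and 17.4 on the P5 arrays. These means over spots lie near the 95th percentile of single negative control spots. That percentile was 11.5, 15.4 and 12.2 on the P4 arrays and 10.4, 10.5 and 12.7 on the P5 arrays. Its 4 probes, all divided by the same scaling signal per array, gave differences of 0.25 to 0.42, with a spread among spots of 8.82 to 47.3%. Of its kept spots, 5.13, 31.6 and 8.11% were well above background on the P4 arrays and 75, 35.1 and 10% on the P5 arrays.

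mmu-miR-134-5p, known for limiting Limk1 and spine size in rat hippocampal neurons, was the detected member whose unscaled signal was higher in P5 without overlap. It stood at 23.9, 28.2 and 23.6 intensity units on the P4 arrays and 45.5, 46.5 and 56.4 on the P5 arrays. After scaling the groups overlapped, with -2.96, -3.76 and -3.53 on the P4 arrays and -3.53, -3.30 and -2.48 on the P5 arrays. The difference was -0.32 ± 0.32 (SE, n = 3 arrays each, adjusted p = 0.496, limma), -0.97 with no scaling (adjusted p = 0.0372), 0.18 with normexp background correction and 0.11 with a block for the array row, so no direction is given for it. Its 4 probes gave -0.37 to -0.28.

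mmu-miR-3070a-3p and mmu-miR-3070b-3p, whose hairpins lie next to each other within Rtl1, were detected on the same arrays, P4 replicate 3 and all 3 P5 arrays. Neither matched a RefSeq mature sequence, so their likeness was not compared and their probes may share signal. The unscaled signal of mmu-miR-3070a-3p was 6.26, 11.4 and 20.2 intensity units on the P4 arrays and 22.8, 15.2 and 22.6 on the P5 arrays. That of mmu-miR-3070b-3p was 7.63, 13.8 and 18.3 on the P4 arrays and 33.9, 21.7 and 16.9 on the P5 arrays. Both overlapped between the groups, with differences of -0.16 ± 0.41 and -0.25 ± 0.26 (SE, n = 3 arrays each, adjusted p = 0.793 and 0.505, limma) that turned to 0.39 and 0.36 with normexp. With the authors' processed values, to which no floor was applied here, they were -4.24 and -4.78 (adjusted p = 0.191 and 0.140, limma). mmu-miR-376c-3p was detected on P5 replicates 1 and 2 and on no P4 array, and was not tested. Its unscaled signal was 3.06, 5.09 and 1.74 intensity units on the P4 arrays and 13.9, 6.92 and 1.55 on the P5 arrays. On P5 replicate 1, 1 of its 4 probes had spots well above background, 66.7% of them, and on P5 replicate 2 no probe had any.

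**Figure D3:**
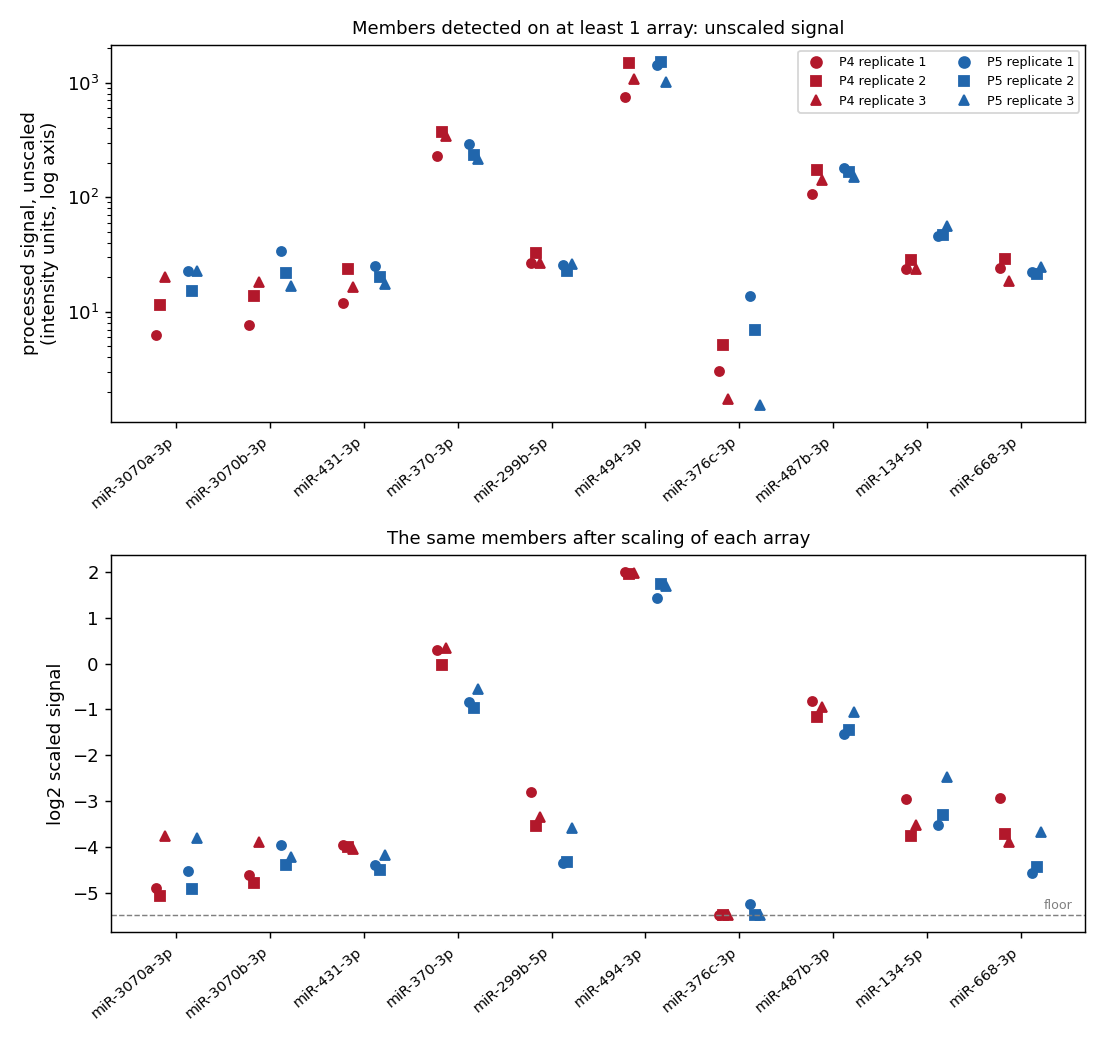
Signal of the 10 members detected on at least 1 array, in map order, with P4 arrays in red at the left and P5 arrays in blue at the right of each name, and a marker shape per replicate number. The upper panel shows unscaled signal (intensity units, log axis) and the lower panel the log2 scaled signal, with the floor of -5.49 dashed. The groups of miR-370-3p part only in the lower panel, and those of miR-134-5p only in the upper one.

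Among the 9 tested members, 4 had scaled signals that did not overlap between the populations, miR-370-3p, miR-431-3p, miR-494-3p and miR-299b-5p, and all were higher in P4. Over all tested miRNAs 20.5% did not overlap with P4 higher. On the unscaled signal the count was 1 higher in P4, miR-299b-5p, and 1 higher in P5, miR-134-5p, where over all tested miRNAs 7.57% did not overlap with P4 higher and 37.3% with P5 higher.

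Probe agreement was complete in direction. Each of the 9 tested members had 2 to 4 probes above the floor, and the probes of a member all pointed the same way. Probes of 1 miRNA bind the same molecules, share the scaling of their array and are no replicates. Their shared sign is therefore no separate support for a difference. The widest range among the probes of a member was -0.35 to -0.13, for mmu-miR-3070b-3p. The spread among spots of a probe reached 80.9% for that miRNA, where signals were weak.

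**Figure D4:**
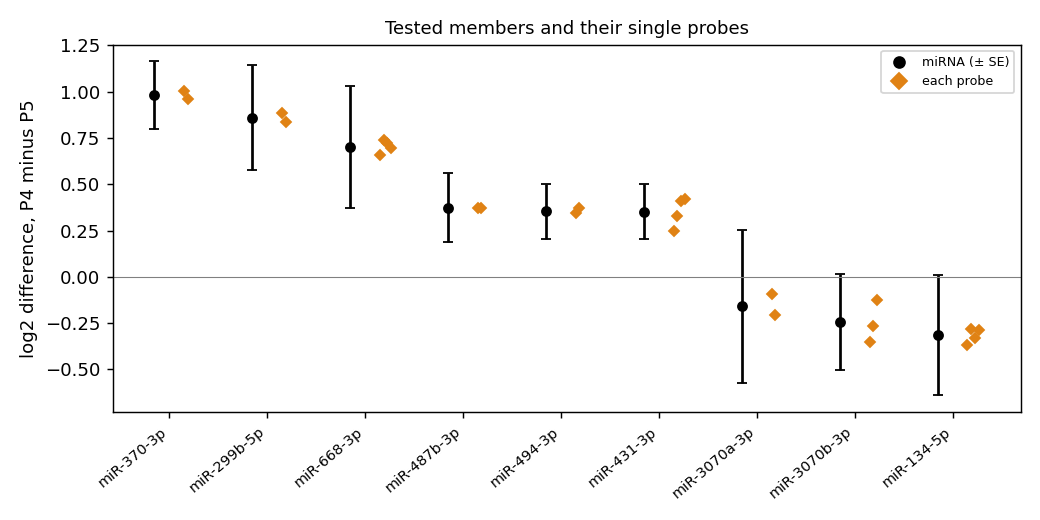
Log2 difference, P4 minus P5, of the 9 tested members (black, ± SE of the fit, n = 3 arrays each) and of each of their probes (orange). The orange points sit within the black error bar of their miRNA and on the same side of 0.

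The members' summed scaled signal was 6.23, 5.78 and 6.34 on the P4 arrays and 3.93, 4.53 and 4.86 on the P5 arrays. Every P4 array was higher, by 0.47 on the log2 scale between the means, and by 0.38 to 0.53 when each array was left out in turn. All of these settings kept the scaling, so they do not show that the order holds without it. mmu-miR-494-3p made up 64.3, 66.9 and 62.0% of the members' signal on the P4 arrays and 68.6, 73.4 and 66.8% on the P5 arrays. Its own difference turned to -0.30 with no scaling. Without mmu-miR-494-3p the sums were 2.22, 1.91 and 2.40 on the P4 arrays and 1.23, 1.20 and 1.62 on the P5 arrays, still without overlap. As a share of the summed signal of all miRNAs the members overlapped, with 0.615, 0.702 and 0.663% on the P4 arrays and 0.542, 0.659 and 0.553% on the P5 arrays. Probes differ in brightness, so these sums describe signal and not numbers of molecules.

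Some of the undetected members had more signal in P4. Of the 29 undetected members 7 (24.1%) had every P4 signal above every P5 signal, unscaled, and 1 (3.45%) the reverse. Of the 743 other undetected miRNAs 39 (5.25%) had P4 above P5, and 14.5% the reverse. Among the 68 other undetected miRNAs of the region the shares were 7.35% and 13.2%. The count moved with the arrays used: it was 12, against 83 of the others, after subtracting each array's median over undetected miRNAs, and 17 (58.6%), against 12.9% of the others, without P4 replicate 1. Without P4 replicate 2 or 3 it stayed at 7 (24.1%), against 6.06 and 11.2% of the others. Without P5 replicates 1, 2 and 3 the shares were 31.0, 27.6 and 31.0%, against 6.6, 10.5 and 9.69% of the others. With an array left out, groups of any miRNA part more easily, so a rise in the count alone says little. The count itself and these settings were chosen after seeing the data.

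mmu-miR-127-3p had signals of 2.44, 5.77 and 10.5 intensity units on the P4 arrays and -0.558, 0.960 and -1.65 on the P5 arrays. For mmu-miR-136-5p, which like miR-127 lies opposite Rtl1, they were 3.72, 9.71 and 7.40 on the P4 arrays and 1.91, 3.26 and 2.07 on the P5 arrays. All of these values are below the 95th percentile of the single negative control spots of their array, though each value is a mean over many spots. mmu-miR-379-5p and mmu-miR-411-5p, whose hairpins are neighbours at the start of the stretch between Rian and Mirg, both had this order. mmu-miR-379-5p had -1.38, 2.81 and 5.31 on the P4 arrays and -1.69, -2.28 and -2.11 on the P5 arrays, and mmu-miR-411-5p had -0.157, 2.93 and 4.50 on the P4 arrays and -1.38, -0.318 and -2.61 on the P5 arrays. In these 2 miRNAs the lowest P4 array, replicate 1, was close to the P5 arrays.

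The remaining members of this kind were mmu-miR-337-3p, mmu-miR-377-3p and mmu-miR-495-3p. The signals of mmu-miR-337-3p were 0.662, 0.471 and 2.06 on the P4 arrays and -0.699, 0.00135 and -0.878 on the P5 arrays. Those of mmu-miR-377-3p were -0.715, 1.07 and 1.12 on the P4 arrays and -2.80, -1.57 and -2.87 on the P5 arrays. Those of mmu-miR-495-3p were 0.295, 1.38 and 1.85 on the P4 arrays and -1.66, -1.29 and -0.298 on the P5 arrays. mmu-miR-539-5p had the reverse order, with -1.21, -0.516 and -0.415 on the P4 arrays and 1.01, 1.71 and 0.339 on the P5 arrays. In 6 of the 7 miRNAs with P4 above P5, P4 replicate 3 had the highest signal. The same array had the highest sums of the mesenchymal (2.96), endothelial (20.6) and leukocyte (2.96) markers given above, but the lowest sum of the muscle markers among the P4 arrays (0.452). It also had the most undetected miRNAs with a bright spot flagged as an outlier and left out. These were 53 of 772, against 1 and 0 on the other P4 arrays and 40, 10 and 0 on the P5 arrays. The part of such cells or of such spots in these signals was not tested.

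**Figure D5:**
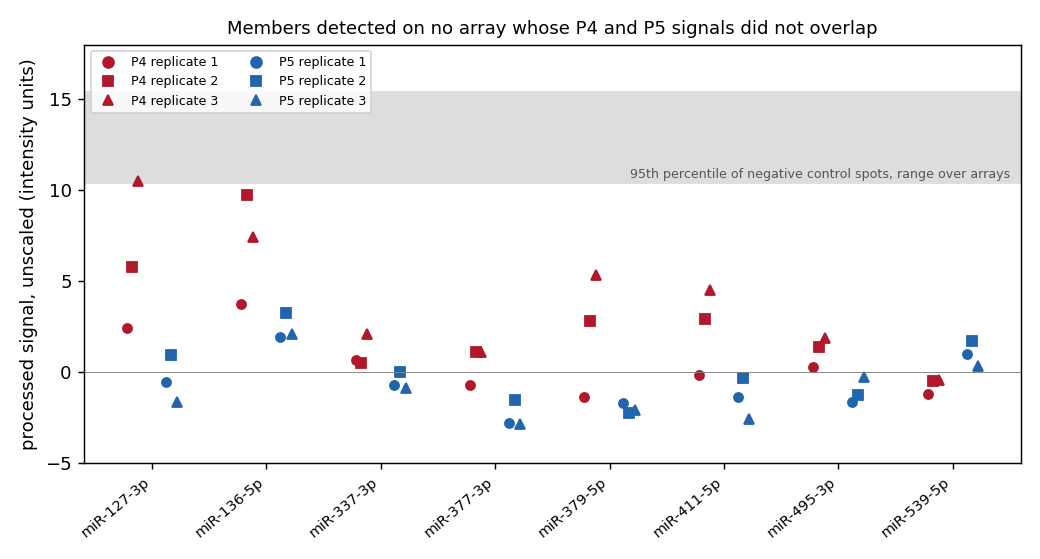
Unscaled processed signal (intensity units, linear axis) of the 8 members detected on no array whose P4 (red, left) and P5 (blue, right) signals did not overlap. The grey band spans the 95th percentile of single negative control spots over the 6 arrays, 10.4 to 15.4, whereas each point is a mean over many spots. miR-127-3p on P4 replicate 3, at 10.5, is the single point that reaches the band, and 7 of the 8 miRNAs have their red points above their blue ones.

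The remaining undetected members, miR-154-5p, miR-300-3p, miR-329-3p, miR-376a-3p, miR-376b-3p, miR-409-3p, miR-410-3p, miR-434-3p, miR-434-5p and miR-543-3p, had signals between -2.82 and 5.96 intensity units, and their groups overlapped. Some of all the undetected members were close relatives. mmu-miR-376a-3p and mmu-miR-376b-3p are 3 single-base edits apart, as are mmu-miR-300-3p and mmu-miR-381-3p, and mmu-miR-495-3p and mmu-miR-543-3p are 4 apart, so probes of such pairs may share signal.

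Detected and undetected members differed in base composition. The 6 detected members with a sequence had 45.5 to 68.2% G and C with a median of 59.1%, and the 28 undetected ones 23.8 to 59.1% with a median of 45.5%. Both members with 60% or more were detected, and 0 of 6 members under 40%. Over all miRNAs of the array with a sequence, both detected and undetected ones had a median of 50%, the share detected being 52.0% at 60% or more and 33.0% under 40%. This is a description of few members, and the effect of composition on probe brightness was not tested.

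Of the other miRNAs between Dlk1 and Dio3, 4 were tested and none was called by limma at the threshold. miR-1906 was detected on all 6 arrays, at 1630, 2946 and 2121 intensity units on the P4 arrays and 3183, 2567 and 2191 on the P5 arrays, with a scaled difference of 0.38 ± 0.15 (SE, n = 3 arrays each, adjusted p = 0.111). RefSeq places it at a second locus too, so its signal cannot be given to the region. miR-770-3p, from Meg3, differed by -0.13 ± 0.20 and miR-3072-5p by -0.12 ± 0.17 (adjusted p = 0.655 and 0.647, limma, n = 3 arrays each), both detected on all 6 arrays. miR-1247-3p was detected on the 3 P5 arrays and on no P4 array, with signals of 2.00, 8.42 and 5.49 intensity units on the P4 arrays and 10.7, 12.7 and 10.9 on the P5 arrays (adjusted p = 0.234, limma). miR-3544-3p and miR-1188-3p were detected on 4 arrays each and miR-667-3p on 1, and none of the 3 was tested.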

How the data were processed

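MicroRNA from 3 P4 and 3 P5 samples was measured on 1 slide in 1 scan. Per the file headers, the authors' deposited scanner files come from Agilent Feature Extraction 11.0.1.1 and give linear spot intensity, background-subtracted but not scaled between arrays. Version 11.0 is the one in the submitters' processing notes. The deposited series matrix holds log2 values. Each of its columns equals log2 of the summed signal per miRNA plus a shift per array and a constant per row, within 7.8e-06. The P4 columns had medians of 0.42, -0.36 and -0.06, and the P5 columns of -0.56, -0.47 and 0.06. Where the row constants come from is unknown.

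Control spots and spots flagged as outliers were left out, and signal was averaged per probe and then per miRNA. Arrays were divided by the 75th percentile over miRNAs detected on all 6 arrays, floored at 0.0223 (-5.49 on the log2 scale), which is the 95th percentile of undetected signal (median of the 6 arrays), and taken to log2. The comparison of P4 against P5 used limma 3.58.1 (R 4.3.3; lmFit and eBayes, 2-sided, no block) and the 370 miRNAs detected on all 3 arrays of a population. Groups came from the sample titles. The calling step was tested on simulated data.

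The 39 members, the marker lists, the tests and the alternatives were chosen with earlier results of these data known. The rule for names was to give every member, those detected on at least 1 array with each value, and other miRNAs of the region that were detected. A planned comparison with the Sfmbt2 intron cluster was not made, since the RefSeq tables used placed 0 array miRNAs there. Of the 31 marker names, miR-219a-5p matched none on the array; of the erythroid pair, miR-144-3p was detected on none and neither passed the filter. Sequences and positions are RefSeq's, build GRCm38.p6; the array headers name mm9, and no array position was used. Alternatives were other scalings, filters, floors, detection rules, probe averaging, summed signal, normexp (on the median spot signal, offset 50), the authors' deposited values, each array left out, and the replicate number as a block.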

Additional observations from a re-analysis of the deposited data

Results flagged for a closer look

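Spots flagged as outliers by the scanner software were not used. For 6 undetected members such a spot was bright, above 3 times the 95th percentile of the negative control spots of its array. On P4 replicate 3 it read 5991.8 intensity units for miR-127-3p, 4051.4 for miR-369-3p, 4728.9 for miR-376b-3p and 7598 for miR-485-5p. On P5 replicate 2 it read 36.202 for miR-300-3p and 122.96 for miR-377-3p. With the spot kept, the mean signal on P4 replicate 3 would be 160 in place of 10.5 for miR-127-3p, 114 in place of 12.6 for miR-369-3p, 123 in place of 5.06 for miR-376b-3p and 187 in place of -2.66 for miR-485-5p. Within 10 rows and columns of these 4 spots lay 10, 5, 12 and 6 other bright flagged spots. Of the 772 undetected miRNAs, 1, 0 and 53 had such a spot on the P4 arrays and 40, 10 and 0 on the P5 arrays.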

How the results depend on the processing

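The numbers of members detected on at least 1 array (10) and on all 6 (7) were 9 to 10 and 5 to 7 under the other detection rules and when arrays were left out. All tested miRNAs higher and lower in P4 were 51 and 52. They were 23 and 77 with no scaling, 31 and 81 with the values the authors processed, 55 and 25 with normexp, 25 and 22 with no filter, and 29 and 23 with a block for the array row, a term chosen after seeing the data, in which the first row held all P4 arrays and 1 P5 array. Scaling over all miRNAs gave 47 and 77, and quantile normalization 49 and 69. Leaving out each array gave 43 to 72 and 40 to 56. The median difference of all tested miRNAs moved to -0.17 with scaling over all miRNAs, -0.64 with no scaling, -0.15 with quantile normalization, 0.29 with normexp, -0.43 with the authors' values and 0.13 with the row block. The 1 member called higher became 0 with no scaling (1 lower), no filter and the row block, 2 with normexp and with the brightest probe, and 1 to 3 when arrays were left out, 3 without P5 replicate 3. miR-370-3p stayed positive throughout (at least 0.33) and kept its call in 18 of 21 alternatives. Directions turned with no scaling for miR-431-3p (-0.30), miR-487b-3p (-0.28) and miR-494-3p (-0.30), with normexp for miR-134-5p (0.18), miR-3070a-3p (0.39) and miR-3070b-3p (0.36), with the authors' values for miR-431-3p (-0.0871), with a doubled floor for miR-3070a-3p (0.0143), and with the row block for miR-134-5p (0.11). Without P4 replicate 1, P4 replicate 2 or P5 replicate 3, miR-3070a-3p was at 0.00125, 0.0892 and 0.148 (-0.57 to 0.15 over all arrays left out in turn). Undetected members with every P4 signal above every P5 signal were 7, against 6 with outlier-flagged spots kept, 12 after subtracting each array's offset and 7 to 17 when arrays were left out. The causes were not tested.

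The labels do not say whether samples with the same replicate number shared more than that number. Their deviations from the group means correlated at -0.0696, 0.369 and 0.0863 over the 370 miRNAs, which does not settle whether they were paired. With the replicate block the calls were 54 higher and 57 lower, the members called 1 and 0, and miR-370-3p stood at 0.98 (adjusted p = 0.00779, limma). Signal over background limits all members but miR-494-3p, miR-370-3p and miR-487b-3p, whose spots were all well above background.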
